A study of Mus musculus with 8 samples.

Results

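The nuclear-encoded respiratory chain genes are the protein-coding genes whose symbols begin with Nduf followed by a subunit letter and number, Sdha to Sdhd, or symbols that begin with Uqcr, Cox4 to Cox8 or Atp5. This rule on names found 89 of the 55414 gene IDs in the count table, which carried 88 symbols because Atp5po had 2 IDs. By symbol, 39 IDs belonged to complex I, 4 to complex II, 8 to complex III, 19 to complex IV and 19 to complex V. Of these, 77 passed the low-count filter and were tested. The 12 that did not pass were Cox4i2, Cox6a2, Cox7b2, Cox8b, Cox8c, Ndufb11b and the second ID of Atp5po, with 0 counts in every library, Cox5b-ps and Ndufa4l2, with 8 and 16 counts in all, and Atp5mc2, Cox7c and Atp5mg.

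The cells were Paneth cells, the antimicrobial secretory cells at the base of the intestinal crypts, sorted by flow cytometry from the small intestine of wild-type C57BL/6J mice. The water group drank Milli-Q water, and the zinc group drank water with 25 mM ZnSO4, for 7 days in both groups. There were 4 libraries in each group, and RNA from each sort was made into a stranded mRNA library. The labels give neither the age nor the sex of the mice, and the study says of its data sets as a whole that they include both sexes. Nothing in the labels says that the replicates were separate animals, although the study describes its Paneth cell samples as coming from individual mice. If they were not, p-values measure only the spread between these samples.

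The respiratory chain sits in the inner mitochondrial membrane. Complex I (NADH dehydrogenase) and complex II (succinate dehydrogenase) pass electrons to ubiquinone, complex III (the cytochrome bc1 complex) passes them to cytochrome c, and complex IV (cytochrome c oxidase) passes them to oxygen. Complexes I, III and IV pump protons, and complex V (ATP synthase) uses the gradient to make ATP. Complex II is wholly nuclear-encoded, whereas the other complexes also hold subunits encoded by mitochondrial DNA.

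The 8 libraries held 20760764 to 24117111 counts each. The 6 Paneth cell markers (Lyz1, Defa24, Itln1, Mmp7, Ang4 and Mptx2) took 37.5% to 48.5% of the counts. Goblet cell markers took 0.866% to 1.43%, stem and cycling cell markers 0.328% to 0.699% and enterocyte markers 0.0154% to 0.0257%, and none of the leukocyte, stroma or erythrocyte markers passed the low-count filter. The Defa genes took the largest share of counts in replicate 1 of both groups (39.8% with water and 38.5% with zinc) and the smallest in replicate 4 (29.2% and 27.9%). Levels are therefore given as CPM on library sizes corrected by TMM (trimmed mean of M-values) factors, which ran from 0.764 to 1.23.

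Together the 89 IDs took 0.477%, 0.626%, 0.572% and 0.845% of the counts in the water libraries (replicates 1 to 4 in order, as in all lists of 4 values), and 0.501%, 0.616%, 0.656% and 0.796% in the zinc libraries. Replicate 1 was the lowest and replicate 4 the highest in both groups, the reverse of the Defa share. After TMM scaling the sum was 6255, 6155, 5371 and 6971 CPM with water and 6474, 6179, 6247 and 6499 CPM with zinc. The mean was 6188 ± 655 CPM in the water group and 6350 ± 161 CPM in the zinc group (SD, n = 4), and all 4 zinc libraries lay within the range of the water libraries. In bulk samples, fewer cells of a type and less RNA per cell cannot be told apart.

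To compare genes with each other, CPM was divided by transcript length. Merged exons were the planned length, and the length of the annotation's canonical transcript was added after the data were seen, because the merged exons of some genes were far longer than it (8652 against 529 bases for Ndufa4). On the canonical length the ATP synthase catalytic core led the set. Atp5f1b, the beta subunit, stood at 428 CPM per kb and Atp5f1a, the alpha subunit, at 288 CPM per kb. The order of this pair was the same on merged exons (178 and 161 CPM per kb).

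Atp5f1b (ENSMUSG00000025393, GRCm39 chr10:127919132-127926261, plus strand) measured 791, 830, 700 and 887 CPM with water. It measured 818, 834, 850 and 878 CPM with zinc, inside the water range. Atp5f1a measured 663, 674, 653 and 777 CPM with water and 728, 699, 724 and 775 CPM with zinc, also inside the water range. These were the genes with the highest CPM of the set. Atp5f1e, the epsilon subunit, followed within complex V at 192 CPM per kb of canonical transcript, and Atp5mc3, which encodes the c subunit of the rotor ring, came next at 175 CPM per kb. Atp5if1, the inhibitor that blocks ATP hydrolysis by the enzyme, stood at 108 CPM per kb.

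Complex IV had the highest median level on the canonical length, 93.0 CPM per kb over 12 tested genes, against 67.6 for complex V, 59.4 for complex III, 51.7 for complex II and 42 for complex I. On merged exons this order did not hold, since complex III was highest (27.3 CPM per kb) and complex IV was 15.5 CPM per kb. Of the complex IV genes, Cox4i1 stood at 288, Cox8a at 197, Cox6a1 at 188 and Cox6b1 at 164 CPM per kb of canonical transcript. Cox4i1 (chr8:121391505-121400950, plus strand) is the regulatory subunit that binds ATP, and it measured 223, 225, 197 and 278 CPM with water and 229, 225, 210 and 215 CPM with zinc.

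Among complex I genes, Ndufa4 and Ndufa1 were the highest on the canonical length (187 and 99.0 CPM per kb). The Ndufa4 protein is now placed in complex IV, and it is listed here under complex I by its symbol only. On merged exons Ndufa4 fell to 11.4 CPM per kb, and the leading genes were Ndufa1 (80.2), Ndufa2 (61.2) and Ndufc2 (43.8 CPM per kb). In complex III, Uqcr10 (129), Uqcrc1, a core protein (88.4), and Uqcrh, the hinge protein (82.4 CPM per kb of canonical transcript), led. The Rieske iron-sulphur protein Uqcrfs1 stood at 39.6 CPM per kb.

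The 4 subunits of complex II, which form a complex with each once, were not level. The membrane anchor Sdhd stood at 90.1, the flavoprotein Sdha at 70.2, the other anchor Sdhc at 33.3 and the iron-sulphur protein Sdhb at 17.4 CPM per kb of canonical transcript. Merged exons put Sdhd highest (44.4) and Sdhb lowest (8.41 CPM per kb) as well, with Sdhc (26.6) and Sdha (25.9) at nearly the same level. The level per length in the plot of levels by complex spans from 1.13 CPM per kb for Atp5mk to 428 CPM per kb for Atp5f1b.

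**Figure D1:**
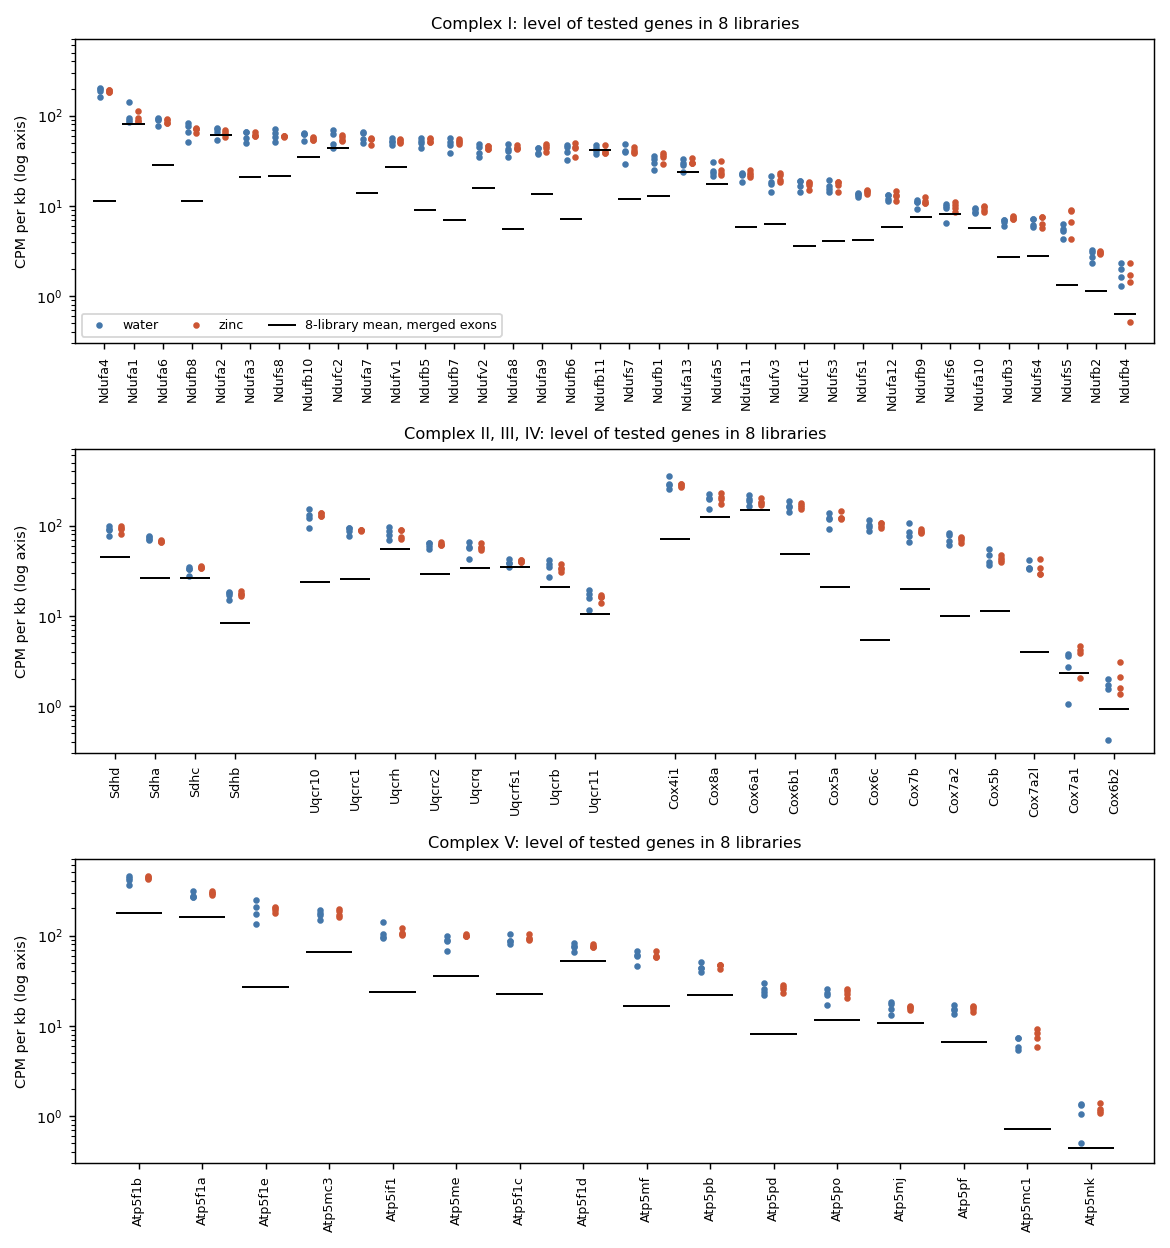
Level of 76 of the 77 tested genes, in CPM per kb on a log axis, by complex. Points are the 4 water and 4 zinc libraries on the canonical transcript length, and black bars are the 8-library mean on merged exons. Atp5f1b is highest (428 CPM per kb on the canonical length), Ndufb4, Cox6b2 and Atp5mk are among the lowest (1.66, 1.72 and 1.13 CPM per kb), and the water and zinc points of most genes overlie each other.

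Several subunits of complexes IV and V come in paralogous forms, some of them known from heart, muscle, testis or lung. In the complex IV pairs given here, the widely expressed form was the higher. Cox4i2, Cox6a2, Cox7b2, Cox8b and Cox8c each had 0 counts in all 8 libraries. With 3 counts per library as the floor, Cox4i1 was at least 1151-fold higher than Cox4i2 per kb of canonical transcript, Cox6a1 at least 653-fold higher than Cox6a2, Cox7b at least 935-fold higher than Cox7b2, and Cox8a at least 2290-fold higher than Cox8b and at least 536-fold higher than Cox8c. These bounds cover counting error only. Cox6b2, a testis form, was detected at 0.250 to 1.84 CPM, and Cox6b1 was 52.6-fold to 383-fold higher per kb across the 8 libraries. Cox7a1, a heart and muscle form, was detected at 0.465 to 2.02 CPM, and Cox7a2 was 16.3-fold to 57.8-fold higher. Ndufa4l2 had 16 counts in all, and Cox7a2l, which takes part in supercomplex assembly, stood at 34.6 CPM per kb.

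A further group of low genes included subunits with no alternative form of this kind. Cox7c, a core subunit of cytochrome c oxidase, had 59 counts over 8 libraries, or 0.115 to 0.543 CPM, while the other widely expressed subunits of the enzyme averaged 39.3 to 225 CPM. Atp5mg had 65 counts and Atp5mc2 28 counts in all. Ndufb4 averaged 35 counts, Atp5mk 69.8, Ndufs5 76.8 and Atp5mc1 95.6 counts per library. For comparison, the median over the 55 tested genes whose coding sequence is described next as wholly distinct was 1284 counts.

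These low counts coincided with coding sequence that occurs at more than 1 place in the genome. Each canonical transcript was broken into all windows of 75 bases, and each window was looked for, base for base, elsewhere in GRCm39. In 61 of the 89 IDs every window inside the coding sequence was found nowhere else. In Cox7c, Ndufb4, Atp5mk and Atp5mc2 it was the opposite, with 0% of the coding windows found nowhere else. The share was 7.71% in Atp5mc1, 33.9% in Atp5mg and 40.1% in Ndufs5. In all, 11 IDs were below 50%, among them Ndufa12 (36.8%), Atp5pd (46.1%), Cox5b (47.5%) and Uqcrb (48.9%), which averaged 355, 669, 884 and 430 counts.

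The coding sequences of 4 genes show where the shared coding windows lie. Capitals mark bases within a 75-base window that is found elsewhere in the genome, and lower case marks the rest. Sequences are spliced, 5′ to 3′ on the gene's strand, from GENCODE M39 on GRCm39. Cox7c (chr13:86189246-86195023, minus strand) and Atp5mk (chr19:47071822-47079143, minus strand) are in capitals throughout. Cox6c (chr15:35923634-35938392, minus strand) is in capitals except over its first part and its last few bases, and Atp5me (chr5:108581110-108582949, minus strand) has none. Although only 54.8% of its coding windows are found nowhere else, Cox6c averaged 1133 counts per library and was not a low gene.
Cox7c: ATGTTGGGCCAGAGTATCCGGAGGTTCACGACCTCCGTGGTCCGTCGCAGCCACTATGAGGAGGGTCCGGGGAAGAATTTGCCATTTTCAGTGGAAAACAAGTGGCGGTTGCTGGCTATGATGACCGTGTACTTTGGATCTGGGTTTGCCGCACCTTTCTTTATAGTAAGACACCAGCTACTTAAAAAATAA
Atp5mk: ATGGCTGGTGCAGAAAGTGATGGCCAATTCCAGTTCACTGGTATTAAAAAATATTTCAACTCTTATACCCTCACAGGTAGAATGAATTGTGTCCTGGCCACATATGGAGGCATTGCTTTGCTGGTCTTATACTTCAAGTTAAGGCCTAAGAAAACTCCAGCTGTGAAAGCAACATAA
Cox6c: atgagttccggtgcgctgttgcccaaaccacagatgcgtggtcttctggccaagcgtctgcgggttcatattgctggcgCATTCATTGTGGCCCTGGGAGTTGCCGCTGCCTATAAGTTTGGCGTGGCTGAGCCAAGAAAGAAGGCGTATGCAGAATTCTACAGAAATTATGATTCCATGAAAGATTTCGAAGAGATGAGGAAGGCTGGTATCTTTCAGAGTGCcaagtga
Atp5me: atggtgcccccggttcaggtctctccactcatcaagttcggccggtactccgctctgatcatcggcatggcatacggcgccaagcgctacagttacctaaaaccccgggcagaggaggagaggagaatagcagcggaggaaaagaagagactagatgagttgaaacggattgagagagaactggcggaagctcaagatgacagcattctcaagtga

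The pseudogenes that hold windows of these genes had few counts of their own. The 5 pseudogenes with windows of Cox7c had 18.9 counts per library in sum, the 9 with windows of Atp5mk had 7.88, the 9 with windows of Atp5mg had 3.00 and the 2 with windows of Ndufb4 had 0. The handling of reads that map to several places is not stated in these sources, and its part in the low counts was not tested. The comparison among the genes of the c subunit meets the same limit, since Atp5mc1 and Atp5mc2 share coding windows with other loci while Atp5mc3 does not (100%). Levels of the 11 IDs below 50% are therefore given as uncertain.

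**Figure D2:**
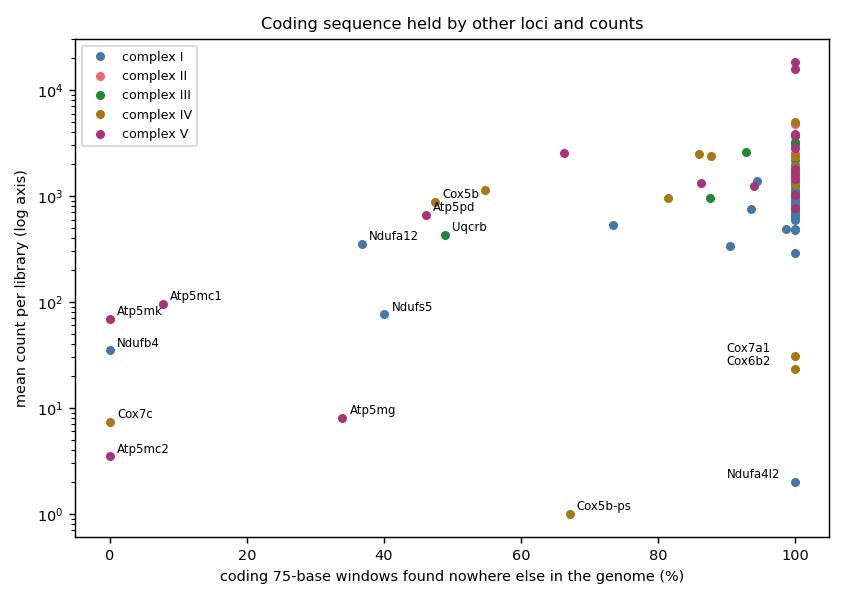
Mean count per library (log axis) of each gene with any count against the percentage of its coding 75-base windows found nowhere else in GRCm39, coloured by complex. Genes at 0% (Atp5mc2, Cox7c, Ndufb4 and Atp5mk) average 3.5 to 69.8 counts. Most genes at 100% lie above 100 counts, with Cox6b2, Cox7a1 and Ndufa4l2 below.

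The mitochondrially encoded subunits showed a like coincidence at the low end. Of the 13 genes, mt-Co2, mt-Co3, mt-Atp6, mt-Atp8 and mt-Nd4l had 0 counts in every library, and 0% of their windows were found nowhere else in the genome. For mt-Nd3 the share was 1.09%, and it had 7 counts over the 8 libraries. By contrast, mt-Cytb and mt-Nd1, both at 100%, averaged 84353 and 44840 counts, and mt-Co1, at 60.2%, averaged 99771 counts. Between these ends the share did not order the counts. The gene mt-Nd4, at 38.5%, averaged 23837 counts, and mt-Nd6, at 100%, averaged 20.9 counts. The genes at 0 are subunits that the enzymes cannot work without, so a value of 0 in this table is not read as absence of the transcript. Copies of mitochondrial DNA in the nuclear genome are well known in mouse as background.

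The genes moved together from library to library. For each gene, log2(CPM + 1) was taken as its difference from the gene's own mean over the 8 libraries. The median of the 77 differences was 0.02, -0.04, -0.23 and 0.16 with water and 0.07, -0.01, -0.003 and 0.04 with zinc. Water replicate 3 was thus the low library and water replicate 4 the high one, while the median over all 11988 tested genes was between -0.001 and 0.010 in every library.

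In water replicate 3, 75 of the 77 genes lay below their own mean, whereas 49.4% of all tested genes did. This library held the lowest of the 8 values for 67 of the 77 genes (87.0%), against 15.8% of all tested genes. The 67 included all 16 tested genes of complex V, all 8 of complex III, 10 of 12 of complex IV, 30 of 37 of complex I and 3 of 4 of complex II. Sdha was the exception in complex II. Water replicate 4 held the highest value for 36 genes (46.8%), against 13.7% of all tested genes. Zinc replicate 1 held it for 18 (23.4%), against 13.3%.

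Single genes show the size of this spread. Uqcr10 measured 59.0, 54.2, 42.5 and 68.8 CPM with water and 61.3, 57.2, 57.0 and 62.1 CPM with zinc, so the water libraries reached to both sides of the zinc libraries. Cox7b measured 85.1, 78.1, 66.5 and 107 CPM with water and 88.2, 83.7, 87.2 and 92.0 CPM with zinc. Cox5a, a subunit of the matrix side of the oxidase, measured 85.9, 84.0, 65.6 and 99.1 CPM with water and 86.2, 84.2, 85.3 and 102 CPM with zinc. In each of these genes water replicate 3 was the lowest of all libraries.

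This ordering depended in part on the scaling. With library totals alone, which leave in the difference in Defa share, water replicate 1 was lowest for 50 genes and water replicate 3 for 8. Of all tested genes, 42.4% were then lowest in water replicate 1 and 5.22% in water replicate 3. The median of the respiratory chain genes less that of all genes in the same library, however, was -0.23 in water replicate 3 with TMM factors, -0.24 with RLE factors (median ratios to a reference library), -0.22 with library totals and -0.23 with totals from which the Defa genes were removed. In water replicate 4 it was 0.16, 0.16, 0.18 and 0.17.

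**Figure D3:**
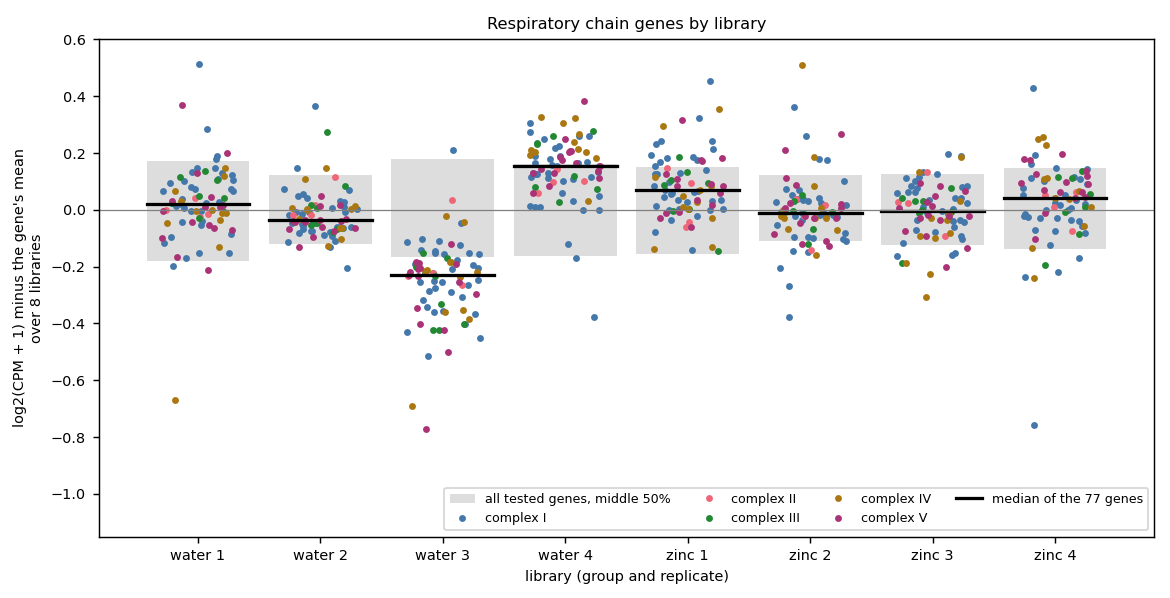
Difference of each of the 77 tested genes from its own mean over the 8 libraries, on the log2(CPM + 1) scale, by library. Points are genes coloured by complex, black bars are their medians, and grey boxes hold the middle 50% of all tested genes. The median is -0.23 in water replicate 3 and 0.16 in water replicate 4, and 75 and 72 of the 77 genes lie on that side of 0.

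Other gene lists moved with these libraries to different degrees. In water replicate 3 the median difference was -0.19 for assembly factors, -0.12 for cytosolic ribosomal proteins, -0.11 for the TCA cycle and -0.04 for the mitochondrially encoded subunits. In water replicate 4 it was -0.01 for assembly factors, 0.25 for ribosomal proteins, 0.02 for the TCA cycle and -0.29 for the mitochondrially encoded subunits. Adenine nucleotide and phosphate carriers and uncoupling proteins were at -0.14 in water replicate 3 and 0.12 in water replicate 4. Genes for electron carriers and ubiquinone synthesis were at -0.08 and 0.10, and regulators of mitochondrial biogenesis at 0.02 and 0.06. Goblet cell markers had medians of -0.37 and 0.37 in the same pair of libraries, and their share of counts was 0.866% and 1.08%, within 0.866% to 1.43% over all 8. The 6 Paneth cell markers had medians of -0.11 and -0.45, the 5 tested enterocyte markers -0.32 and -0.17, and the stem and cycling cell markers 0.23 and -0.01. Markers of rarer types had larger differences, with medians of 1.92 and 0.65 for the 2 tested enteroendocrine markers and of 0.29 and 1.43 for the 3 tuft cell markers. Their lists took only 0.000263% to 0.00896% and 0.000931% to 0.0136% of the counts over the 8 libraries. The part of these lists in the shift of the respiratory chain genes was not tested.

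As a description of how tightly the genes moved together, correlations were taken over the 8 libraries after the group means were removed. The median over all pairs of the 77 genes was 0.67, and 68.5% of pairs exceeded 0.5. For 74 ribosomal protein genes the median was 0.50, for the 7 tested mitochondrially encoded subunits 0.93, and for 2105 genes of like abundance 0.01 (17.2% of pairs above 0.5). The points share libraries, depth and scaling, so no p is given.

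Zinc was compared with water by edgeR's quasi-likelihood test over all 11988 tested genes with Benjamini-Hochberg adjustment and a threshold of 0.05. No respiratory chain gene passed in either direction, that is 0 of 77 higher (0.025% of all tested genes) and 0 of 77 lower (0.0584%). None had an unadjusted p below 0.05, whereas 4.65% of all tested genes did. DESeq2 and limma-voom also gave 0 of 77, adjusted or not. The adjusted p was 0.998 for every one of the 77 genes, and the smallest unadjusted p was 0.0847.

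The fold changes were small. The median log2 fold change of the 77 genes was 0.05, against 0.01 for all tested genes, with quartiles of -0.01 and 0.09. The median SE of a gene was 0.12. Of the 77 genes, 56 had a log2 fold change above 0 (72.7%, against 51.9% of all tested genes), yet the median turned to -0.03 without water replicate 3 and was 0.11 without water replicate 4. The sign of the median thus rested on water replicate 3.

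The intervals show what size of change the data could still hold. The 95% interval of the fold change lay within 1.5-fold either way for 71 of the 77 genes and within 2-fold for 74. The 3 genes with wider intervals were Ndufb4 (0.443 to 1.51), Cox7a1 (0.698 to 2.45) and Cox6b2 (0.694 to 2.8), which averaged 35, 30.9 and 23.5 counts per library. A p above the threshold does not show that the groups were equal.

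By complex, the median log2 fold change was 0.07 in complex I (27 genes above 0 and 10 below), 0.04 in complex II (3 and 1), 0.03 in complex III (5 and 3), 0.01 in complex IV (7 and 5) and 0.05 in complex V (14 and 2). No complex had a gene past the threshold. The plot of fold changes shows every interval crossing 0.

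**Figure D4:**
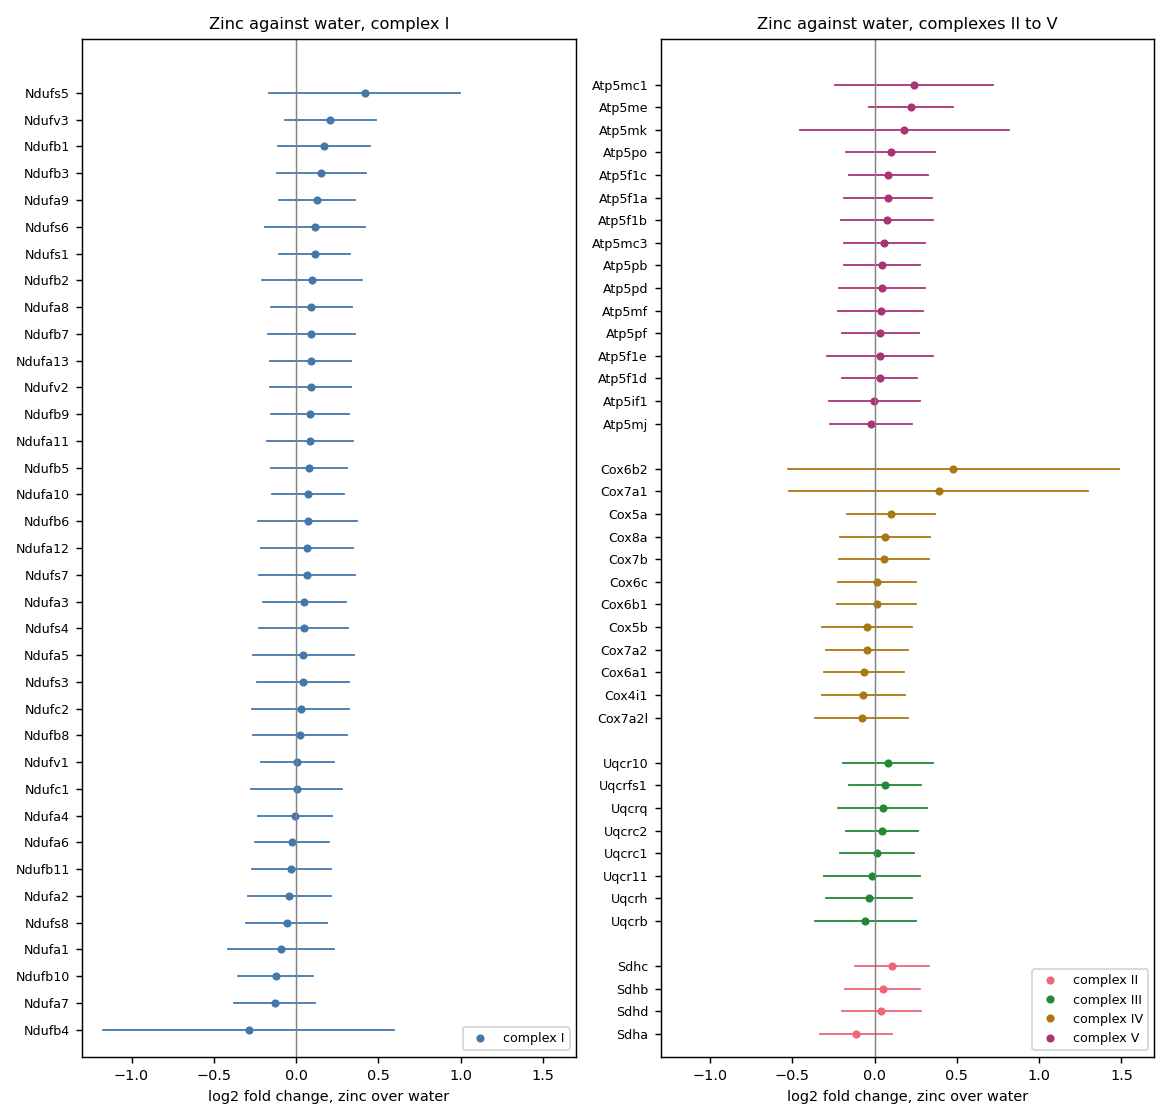
Log2 fold change of zinc over water for 76 of the 77 tested genes, with 95% intervals from the edgeR fit, by complex and sorted by value. All intervals drawn include 0, the estimates run from -0.29 to 0.48, and the widest intervals belong to Cox6b2, Cox7a1 and Ndufb4.

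In complex V, Atp5me, the e subunit, had the smallest p of the set. It measured 32.5, 33.2, 25.2 and 36.2 CPM with water and 38.9, 36.4, 36.3 and 36.6 CPM with zinc. The groups did not overlap, but the lowest zinc library exceeded the highest water library by a small margin. The estimate was 0.22 on the log2 scale (SE 0.12, edgeR adjusted p = 0.998), with an interval of 0.977-fold to 1.39-fold. Ndufb3, an accessory subunit of complex I, was the other gene whose groups did not overlap, with 13.0 to 15.4 CPM with water and 15.6 to 16.9 CPM with zinc and a log2 fold change of 0.15. These 2 of 77 are 2.6%, against 1.24% of all tested genes that were higher without overlap, and 0 of 77 were lower without overlap, against 1.59%.

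In complex I the smallest p after that belonged to Ndufv3, a small subunit of the NADH-binding part. It measured 28.2, 29.3, 23.0 and 34.3 CPM with water and 31.2, 36.9, 29.3 and 35.2 CPM with zinc, with an estimate of 0.21 on the log2 scale (SE 0.13, edgeR adjusted p = 0.998). Ndufs5 had a larger estimate, 0.42 (SE 0.27), at 2.37 to 3.52 CPM with water and 2.37 to 4.99 CPM with zinc, but 40.1% of its coding windows are found nowhere else and its level is uncertain. The core catalytic subunits Ndufs1 and Ndufv1 had log2 fold changes of 0.11 and 0.01. The groups overlapped in all of these genes.

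In complex II, Sdha measured 212, 233, 221 and 231 CPM with water and 209, 212, 202 and 205 CPM with zinc. The lowest water library lay just below the highest zinc library, so the groups overlapped. The log2 difference was -0.12 (SE 0.10, edgeR adjusted p = 0.998), and the sign stayed negative under all 16 alternatives, from -0.14 to -0.10. Sdhc, Sdhb and Sdhd had log2 fold changes of 0.11, 0.05 and 0.04. In complex III, Uqcr10 was at 0.08 (SE 0.13) and Uqcrb, a ubiquinone-binding subunit, at -0.06 (SE 0.14). In complex IV, Cox4i1 was at -0.07 (SE 0.12), Cox7a2l at -0.08 (SE 0.13) and Cox5a at 0.10 (SE 0.13).

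The mitochondrially encoded part of the chain was set beside the nuclear part. Of the 13 genes in the mitochondrial sum, 5 had 0 counts and mt-Nd3 had 7, values not read as absence, so the sum rests on the remaining genes. The ratio of summed mitochondrially encoded to summed nuclear counts was 3.02, 2.48, 2.44 and 1.58 with water and 1.79, 1.92, 2.90 and 1.65 with zinc. It varied by nearly the same range in both groups, which overlapped. The mitochondrially encoded genes summed to 10715 to 18862 CPM, and water replicate 1 and zinc replicate 3 were the high libraries. All 7 that were tested had log2 fold changes below 0 (median -0.19), whereas 51.9% of all tested genes were above 0, and 0 of the 7 passed the threshold. These 7 moved together between libraries (median correlation 0.93), so their signs are not separate observations. The smallest p belonged to mt-Nd6, the gene on the other strand of mitochondrial DNA, at -0.99 (SE 0.56, edgeR adjusted p = 0.998) and 0.191 to 2.13 CPM.

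**Figure D5:**
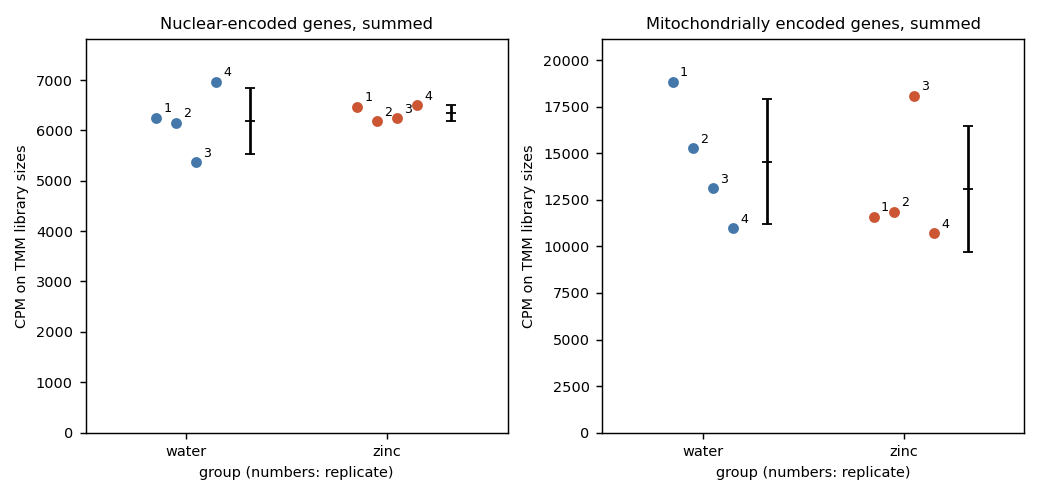
Summed CPM of the nuclear-encoded respiratory chain genes and of the mitochondrially encoded subunits in each library, numbered by replicate, with the mean and SD of each group (n = 4). The mitochondrial sum includes 5 genes with 0 counts in every library. The nuclear sum runs from 5371 to 6971 CPM and the mitochondrial sum from 10715 to 18862 CPM, the high and low libraries differ between the panels, and the groups overlap in both.

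Genes that build or feed the chain were read from lists of related genes. Of 57 tested assembly factors, 45 had a log2 fold change above 0 and 12 below (median 0.11), and 0 passed the threshold. Among all tested genes 51.9% were above 0, the share to set beside this list and those that follow. Assembly factors were also low in water replicate 3 (median difference -0.19), the library on which the sign for the respiratory chain genes rested. An unadjusted edgeR p below 0.05 was found for 3 of the 57, and for 4.65% of all tested genes. The smallest p was that of Taco1, a translational activator of mt-Co1, at 10.3, 8.33, 8.16 and 7.14 CPM with water and 9.86, 9.90, 13.0 and 13.1 CPM with zinc (log2 fold change 0.44, SE 0.17, edgeR adjusted p = 0.998). The zinc libraries were higher except that water replicate 1 exceeded the 2 lowest of them. Of 20 genes for electron carriers and ubiquinone synthesis, 12 were above 0 and 8 below (median 0.01), and Coq2, which attaches the ubiquinone side chain, had the smallest p (0.25, SE 0.12, edgeR adjusted p = 0.998).

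Of 18 TCA cycle genes, 12 were above 0 and 6 below (median 0.08). Pdhb, of the pyruvate dehydrogenase complex, measured 16.0 to 22.8 CPM with water and 23.7 to 24.2 CPM with zinc without overlap (0.25, SE 0.13, edgeR adjusted p = 0.998). It was 1 of the 18 that were higher without overlap, as were 1.24% of all tested genes. Of 21 regulators of mitochondrial biogenesis, 9 were above 0 and 12 below (median -0.03), and Gabpa, the DNA-binding subunit of an ETS factor, had the smallest p (0.19, SE 0.12, edgeR adjusted p = 0.998). Of 7 adenine nucleotide and phosphate carriers and uncoupling proteins, 6 were above 0 (median 0.07), with Slc25a5 at 0.17 (SE 0.12). Of 74 cytosolic ribosomal protein genes, 18 were above 0 and 56 below (median -0.07), and Rpl10a had the smallest p (-1.08, SE 0.38, edgeR adjusted p = 0.920). Rpl10a measured 1.44 to 3.01 CPM with water and 0.653 to 1.06 CPM with zinc. It was 1 of the 74 that were lower without overlap, as were 1.59% of all tested genes. No gene of these lists passed the threshold, and 4 in all had an unadjusted edgeR p below 0.05, whereas 4.65% of all tested genes did.

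Promoters of the genes were searched, on both strands, for the cores of 3 motifs known from genes for mitochondrial proteins. The cores were GCATGCGC (NRF1), CCGGAAGT (ETS factors such as GABP) and AAGATGGC (YY1). Any link between holding a motif and the movement between libraries was not tested. The window ran from 250 bases before to 50 bases after the start site in RefSeq's table on GRCm38.p6, in which 68 of the 89 IDs had an entry. The NRF1 core stood in 10 of the 68 (14.7%, against 3.05% of 27025 genes), the YY1 core in 10 (14.7%, against 3.19%) and the ETS core in 5 (7.35%, against 4.31%). Among tested genes with an entry, the shares were 12.7% of 63 against 6.03% of 9371 for NRF1, 15.9% against 5.47% for YY1 and 7.94% against 9.68% for ETS. The motifs do not overlap each other, but an NRF1 palindrome is matched on both strands 2 bases apart.

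Promoters of 4 genes that hold a motif are given in full as examples, with matched bases in capitals, 5′ to 3′ on the gene's strand. None of the 4 holds the YY1 core. Atp5me, with the smallest p, holds an NRF1 palindrome (chr5:108434350-108434649, minus strand), as does Cox6a1 (chr5:115348909-115349208, minus strand). Cox8a holds the ETS core 2 times (chr19:7217567-7217866, minus strand), and Uqcr11 holds an ETS core and an NRF1 core (chr10:80406772-80407071, minus strand). A match describes letters only and is no evidence of binding.
Atp5me: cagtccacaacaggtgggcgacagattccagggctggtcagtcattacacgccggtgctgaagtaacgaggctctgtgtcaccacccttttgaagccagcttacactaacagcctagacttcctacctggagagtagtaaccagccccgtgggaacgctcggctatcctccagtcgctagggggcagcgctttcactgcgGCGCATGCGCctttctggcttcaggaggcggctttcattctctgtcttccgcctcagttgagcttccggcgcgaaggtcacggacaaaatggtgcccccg
Cox6a1: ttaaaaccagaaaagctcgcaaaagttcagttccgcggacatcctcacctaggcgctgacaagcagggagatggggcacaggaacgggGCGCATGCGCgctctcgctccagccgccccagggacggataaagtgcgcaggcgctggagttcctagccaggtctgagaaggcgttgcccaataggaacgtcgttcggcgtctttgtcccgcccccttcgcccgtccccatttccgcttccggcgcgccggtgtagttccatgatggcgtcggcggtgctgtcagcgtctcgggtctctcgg
Cox8a: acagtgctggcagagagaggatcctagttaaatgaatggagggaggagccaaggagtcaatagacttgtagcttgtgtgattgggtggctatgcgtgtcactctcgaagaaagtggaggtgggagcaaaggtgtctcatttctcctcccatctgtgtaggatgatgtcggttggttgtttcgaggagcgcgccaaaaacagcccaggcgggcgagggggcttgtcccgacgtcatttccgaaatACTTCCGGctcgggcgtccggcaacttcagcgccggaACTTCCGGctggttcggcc
Uqcr11: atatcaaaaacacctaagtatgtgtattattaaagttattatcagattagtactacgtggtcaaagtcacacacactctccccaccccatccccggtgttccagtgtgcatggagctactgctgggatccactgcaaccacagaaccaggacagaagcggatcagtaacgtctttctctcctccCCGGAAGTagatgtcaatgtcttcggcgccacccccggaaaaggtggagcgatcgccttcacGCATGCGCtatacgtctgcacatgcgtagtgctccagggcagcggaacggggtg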

How the data were processed

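RNA of sorted Paneth cells was measured in 8 libraries, 4 per group, and groups were taken from the treatment label. The table the authors deposited holds raw counts of reads for each Ensembl ID, not normalized. The submitters' processing notes name FastQC 0.12.0, STAR 2.7.0a, DESeq2 and build mm39, and the counting program, annotation, strand setting and treatment of multi-mapped reads are not stated in these sources. Symbols and coordinates came from GENCODE M39 on GRCm39 by gene ID (54749 of 55414 matched).

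Zinc was compared with water in edgeR 4.0.16 (R 4.3.3) with the default filter (minimum count 10, 11988 genes), TMM factors, robust quasi-likelihood fits with treatment as the only term, and Benjamini-Hochberg adjustment at 0.05. The SE of a log2 fold change was its size divided by the root of the F statistic. DESeq2 1.42.0 and limma 3.58.1 were alternatives, and edgeR was tested on simulated data in which 200 genes were changed. It called 174 genes, of which 16 were false calls and 0 had the wrong sign. It found 68.2% of the simulated 2-fold changes and 94.4% of the 4-fold changes, so some changes of 2-fold would be missed. A count of 0 was taken as up to 3 counts, 0.115 to 0.188 CPM. No libraries were duplicates by a chi-square test of their counts. The depth covers counting error only, and there were no molecular identifiers.

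The members and lists were chosen with earlier results of these data known. Named genes were, in each complex, the 3 highest per kb of merged exons, the 2 with the smallest p and the lowest tested, all paralogue groups, the Sdh genes and Atp5if1, and of each related list the gene with the smallest p. Others were named after their values were seen. Coa1 of the assembly list had no symbol match. The values of 1 member are not reported here, and it is left out of the plots that name genes.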

Additional observations from a re-analysis of the deposited data

Results flagged for a closer look

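In 4 of 68 groups of 4 libraries, 1 library stood apart from the other 3 by Dixon's 95% criterion, and chance singles out about 1 in 20. Atp5f1a was at 777 CPM in water replicate 4, where the others of its group were at 653 to 674 CPM. Cox7a2l was at 51.9 CPM in water replicate 4, against 41.0 to 42.5 CPM. Ndufa1 was at 63.4 CPM in water replicate 1, against 38.6 to 42.3 CPM. Atp5me was at 38.9 CPM in zinc replicate 1, against 36.3 to 36.6 CPM. No explanation was tested for any of these values.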

How the results depend on the processing

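The count of respiratory chain genes past the threshold was 0 under all 16 alternatives set out at the start, as was that of the related lists, and all 509 repeats for the tested genes of the naming rule stayed on the same side of the threshold. Of these 32 genes, 20 changed sign in at least 1 setting. The count of all genes past the threshold was 10, against 34 with DESeq2 and 66 with no low-count filter, and 1 to 15 when a library was left out (1 without water replicate 2, 4 without water replicate 3, 3 without zinc replicate 2). Respiratory chain genes with an unadjusted p below 0.05 numbered 0 to 2 when a library was left out (2 of 77 without water replicate 4, where 5.29% of all tested genes had one, and 1 without zinc replicate 2, where 3.75% did). Their median log2 fold change then ran from -0.033 to 0.1124, and from 0.0352 to 0.0535 under the other settings. The cause was not tested.

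With the replicate number as a block, 32 of all genes passed the threshold, 1 respiratory chain gene had an unadjusted p below 0.05 (7.82% of all tested genes did), and 0 passed. The labels do not say what a number stands for, and the libraries were not paired because the correlation of same-numbered libraries (0.23, 0.00, 0.13 and 0.26) was above 0.1 in only 3 of the 4 pairs. As a hint from the data that numbers may share something, 6 of 8 libraries correlated best with their own number, and TMM factors and Defa shares ran in the same order in both groups.

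Chosen after seeing the data, library totals put the lowest value in water replicate 3 for 8 genes in place of 67, and totals without the Defa genes for 22. The share of all tested genes lowest in that library was then 5.22% and 7.84%, in place of 15.8%. The highest value was in water replicate 4 for 58 genes under both, in place of 36. The share of all tested genes highest in water replicate 4 was then 30.05% and 25.82%, in place of 13.7%, so the background moved as well. With 50-base windows 13 IDs, in place of 11, had under 50% of coding windows found nowhere else. With 4 libraries a group, genes with few counts have wide intervals.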
